A study of Mus musculus with 16 samples.

Results

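DNA replication and S phase genes are the genes whose products license, open and copy the chromosomes, supply the nucleotides, and commit a cell to the cycle at the passage from G1 into S phase. The 36 genes described here were given by symbol, as a list of G1/S, replication and E2F genes, and all 36 were found among the 55291 genes of the count table. Each of the 36 also passed the low-count filter of both model fits, which left 17831 genes in the liver fit and 18193 in the fit with tumours. In each cell cycle the origin recognition complex, Cdc6 and Cdt1 load the MCM helicase on DNA in G1. Cdc45 and the GINS complex then join it to form the active helicase, Mcm10 helps to activate it, and the polymerases copy both strands on the sliding clamp Pcna. Transcription of most of these genes is driven by the E2F factors once the cyclins of G1 and their kinases have released them from the retinoblastoma family. Adult hepatocytes rarely divide, and these genes are known to be low in resting liver and to be switched on when the liver regenerates or forms tumours.

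Polyadenylated RNA was sequenced from whole mouse liver and isolated liver tumours, 2 biological replicates in each of 8 groups. The groups were tumours labelled Arid1a KO/BcatEXON, with no time or treatment given, and Arid1a KO and WT livers from mice given an agonist of a receptor that the labels spell NR1L3. The others were vehicle (DMSO) livers, Arid1a KO and WT at 30 days after tamoxifen, and Arid1a/b DKO, Arid1a KO and WT at 9 days after tamoxifen. Arid1a and Arid1b encode alternative subunits of the BAF chromatin remodelling complex. The descriptions of the WT samples carry the prefix ALB, which is not spelled out there. No label states which promoter drives the recombinase, whether WT mice carry it, which exon is lost, or the age and strain of the mice. The agonist WT livers are labelled 30 days in the time and description fields and 9 days in the title, and are treated here as 30-day livers. Genotype names are those of the labels throughout.

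Total counts per library were 7.57 to 47.8 M, and replicate 1 was the shallower library of every group. Levels are given as CPM, a gene's count over the TMM-scaled total of its library in M, for replicate 1 and then replicate 2. A gene is called when edgeR's quasi-likelihood test gives an adjusted p under 0.05 over all genes tested. Counts of genes with an unadjusted p under 0.05 come without the share of all genes at that cut. Such counts alone do not set a list of genes apart. Arid1a stood at 87.5 and 90.1 CPM in 9-day Arid1a KO livers and 72.2 and 77.04 CPM in 9-day WT livers, and it was not called in any of the liver comparisons. Counts over a whole gene need not show the loss of an exon, so the genotype is not checked by this value, and Arid1a KO names the label. Arid1b fell in Arid1a/b DKO livers (log2 fold change -0.85, SE 0.28, adjusted p = 0.0439; 24.5 and 25.7 CPM in DKO livers, 38.05 and 52.8 CPM in 9-day WT livers). The labelled cell type is hepatocytes. The 10 hepatocyte markers summed to 24437 to 54614 CPM per library, but macrophage, endothelial, stellate cell and erythroid markers were present in every library as well. In such tissue a change in the number of dividing cells and a change of transcript per cell cannot be told apart. Replicate 2 was the higher library for 30 of the 36 genes in tumours, 31 in Arid1a KO livers with the agonist and with vehicle at 30 days, and 35 in Arid1a/b DKO livers, but for 13 to 21 in the other 4 groups. Over all genes this share was 46.8% to 55.6%. The 30-day Arid1a KO livers stood furthest apart. Without Mcm10, the genes summed to 266 CPM in its replicate 1 and 519.7 CPM in its replicate 2.

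The promoters of these genes are known for the E2F site, so the region from 250 bases before to 50 bases after each transcription start was read from RefSeq (GRCm38.p6) and searched on both strands for the words TTTCCCGC, TTTCGCGC, TTTGCCGC and TTTGGCGC. The words of the 2 strands can overlap. A window was found for 30 of the 36 genes, and the first listed for each gene was used. Such a word was present in 12 of these 30 windows (40%), in 25% of 40 windows of other replication genes, in 10% of 10 windows of mitosis genes and in 2.32% of all 27025 windows. The share was 3.8% in the 12242 windows of genes tested in liver. The 12 genes were Orc1, Cdc6, Cdt1, Mcm3, Mcm5, Mcm6, Mcm7, Gins3, Pola1, Pold1, E2f2 and E2f7. The window 2 of Uhrf1 and that of Lig1, which were not counted, hold 1 word each. The CCAAT box was present in 63.3% of the windows of the 36 genes, in each of those of mitosis genes and in 37.9% of all windows. The CHR element TTTGAA, known from late cell cycle promoters, was present in 16.7% of the windows of the 36 genes, in 80% of those of mitosis genes and in 18.1% of all windows.

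The windows of 5 genes are shown because their genes carry the results that follow. Cdc6 and Mcm6 are the only genes followed over all groups that hold an E2F word, and Mcm5, E2f2 and Mcm10 were chosen after their values were seen. Each is printed 5′ to 3′ on the strand of its gene, and capitals mark the E2F words, on either strand. Cdc6 lies at chr11:98907901-98908200 on the plus strand, Mcm6 at chr1:128359656-128359955 on the minus strand, Mcm5 at chr8:75109259-75109558 on the plus strand, E2f2 at chr4:136172024-136172323 on the plus strand and Mcm10 at chr2:5012742-5013041 on the minus strand.
Cdc6: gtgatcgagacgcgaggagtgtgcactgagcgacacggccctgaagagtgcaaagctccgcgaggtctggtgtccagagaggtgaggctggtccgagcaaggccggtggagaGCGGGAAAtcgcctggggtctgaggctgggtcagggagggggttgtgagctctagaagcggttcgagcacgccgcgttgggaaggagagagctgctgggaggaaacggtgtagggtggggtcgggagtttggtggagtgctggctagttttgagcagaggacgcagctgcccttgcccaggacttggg
Mcm6: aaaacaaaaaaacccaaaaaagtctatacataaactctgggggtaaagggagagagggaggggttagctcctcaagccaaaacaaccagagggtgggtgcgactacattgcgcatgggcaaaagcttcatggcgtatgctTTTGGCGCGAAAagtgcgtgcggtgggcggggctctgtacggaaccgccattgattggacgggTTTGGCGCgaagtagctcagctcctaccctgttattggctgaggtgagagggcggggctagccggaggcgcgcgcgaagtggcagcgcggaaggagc
Mcm5: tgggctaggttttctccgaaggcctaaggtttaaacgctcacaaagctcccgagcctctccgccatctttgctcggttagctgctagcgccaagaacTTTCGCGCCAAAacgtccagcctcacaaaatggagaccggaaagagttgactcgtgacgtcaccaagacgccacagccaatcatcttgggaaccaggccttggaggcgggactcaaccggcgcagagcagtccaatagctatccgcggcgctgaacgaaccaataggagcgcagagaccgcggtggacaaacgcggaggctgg
E2f2: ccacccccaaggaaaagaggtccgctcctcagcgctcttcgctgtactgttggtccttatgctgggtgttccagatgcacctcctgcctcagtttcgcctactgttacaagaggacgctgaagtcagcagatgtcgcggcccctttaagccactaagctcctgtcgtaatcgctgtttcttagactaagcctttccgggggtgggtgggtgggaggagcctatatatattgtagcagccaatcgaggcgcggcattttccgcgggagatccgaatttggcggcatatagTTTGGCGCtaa
Mcm10: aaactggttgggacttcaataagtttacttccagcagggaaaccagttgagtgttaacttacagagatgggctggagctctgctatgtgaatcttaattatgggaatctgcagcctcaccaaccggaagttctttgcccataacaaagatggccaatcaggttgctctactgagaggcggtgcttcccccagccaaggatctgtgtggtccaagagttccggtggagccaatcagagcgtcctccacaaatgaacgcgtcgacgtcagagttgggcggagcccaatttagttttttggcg
Mcm6 holds 3 words, of which 2 overlap, whose first bases lie 110, 106 and 47 bases before the start, and Mcm5 holds 2 that overlap. The word of Cdc6 starts 138 bases before the start, and that of E2f2 begins at base 40 of the transcript. The Mcm10 window holds none of the 4 words and 3 CCAAT boxes. It ends with all but the last letter of TTTGGCGC, so a word that runs past its edge would be missed.

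Over the 8 groups, 25 of the 36 genes had their highest mean level in Arid1a/b DKO livers. The lowest mean was in agonist-treated WT livers for 22 genes and in 30-day WT vehicle livers for 8. The span from the lowest to the highest group mean ran from 1.34-fold for Gins4 to 88.3-fold for Uhrf1. Per kilobase of exon, Mcm10, Gins4, Pcna and Tk1 had the highest mean levels in 30-day WT livers, at 26.2, 14.6, 10.2 and 10.04 CPM per kb. Orc1, Cdc6, Chek1, E2f7, Mybl2, Uhrf1 and Gins2 were at 0.246 CPM per kb or less there.

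**Figure D1:**
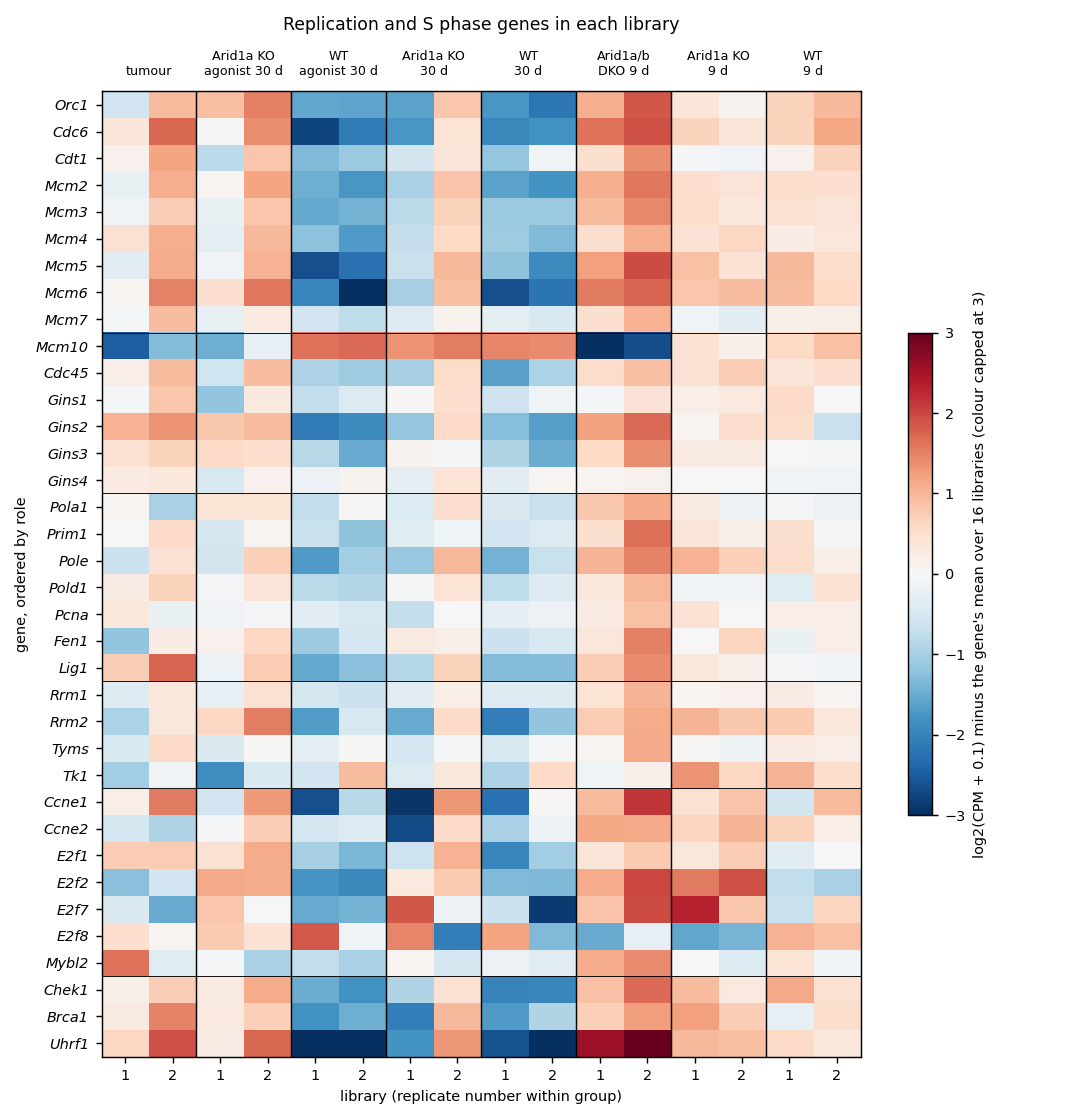
Heat map of the 36 genes (rows, by role) in the 16 libraries (columns, replicates 1 and 2 of each group); colour is log2(CPM + 0.1) minus the gene's mean over all libraries, capped at 3. Most rows are high in Arid1a/b DKO livers and low in WT agonist and WT 30-day livers, while Mcm10 is lowest in DKO livers and the 30-day Arid1a KO libraries differ from each other.

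Orc1, Cdc6 and Cdt1 are the loading factors, and Mcm2 to Mcm7 are the 6 subunits of the helicase ring. The 9 genes summed to 99.6 to 213 CPM in tumours, 94.6 to 195 CPM in agonist-treated Arid1a KO livers and 34.7 to 39.9 CPM in agonist-treated WT livers. Their sum was 60.8 to 154 CPM in 30-day Arid1a KO livers and 46.3 to 47.8 CPM in 30-day WT livers. At 9 days it was 191 to 274 CPM in Arid1a/b DKO livers, 126 to 135 CPM in Arid1a KO livers and 135 to 141 CPM in WT livers. Mcm6 spanned 18.1-fold and Mcm5 17.5-fold between the lowest and highest group mean, while Cdc6 spanned 27.6-fold, Mcm2 8.44-fold, Mcm3 6.504-fold, Mcm4 4.85-fold, Cdt1 4.81-fold and Mcm7 2.73-fold.

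Mcm2 shows the order of the groups in single libraries. It had 10.2 and 25.5 CPM in tumours, 12.4 and 27.3 CPM in agonist-treated Arid1a KO livers and 4.23 and 3.48 CPM in agonist-treated WT livers. With vehicle at 30 days it had 6.06 and 21.7 CPM in Arid1a KO livers and 3.84 and 3.36 CPM in WT livers. At 9 days it had 24.96 and 35.8 CPM in Arid1a/b DKO livers, 17.04 and 15.7 CPM in Arid1a KO livers and 17.2 and 16.9 CPM in WT livers. Both WT groups of 30 days lay below every other library, and the Arid1a KO groups of 30 days and the tumours were spread over a wide range. The 9-day Arid1a KO and WT livers overlapped.

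Among the genes that turn the loaded helicase on, Cdc45 binds the ring together with the 4 GINS subunits. Between the lowest and highest group mean Cdc45 spanned 4.15-fold, Gins1 2.04-fold, Gins2 12.6-fold, Gins3 5.05-fold and Gins4 1.34-fold. Gins2 had 6.84 and 9.80 CPM in Arid1a/b DKO livers and 4.26 and 1.81 CPM in 9-day WT livers, and Gins4 had 22.7 and 23.2 CPM in DKO livers and 19.8 and 19.6 CPM in 9-day WT livers. The exons of Gins2 share 2758 of their 4097 bases with Gse1 on the other strand. Since the strand setting of the counting is unknown, reads from the shared bases cannot be told apart. The same holds for Tk1 and Afmid, Ccne2 and Ints8, Lig1 and Zswim9, Fen1 and Gm10143 or Tmem258, Mcm7 and Ap4m1 or Cops6, Cdc45 and Ufd1, Orc1 and Gm12743, and E2f8 and Gm2788, which share 64 to 1909 bases.

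Among the polymerases, the clamp and the enzymes that join the new strands, Pola1 and Prim1 encode subunits of the primase complex, Pole and Pold1 the catalytic subunits of the leading and lagging strand polymerases. Fen1 trims and Lig1 seals the lagging strand fragments. Between group means Pcna spanned 2.01-fold, Pola1 2.93-fold, Pold1 2.94-fold, Fen1 3.83-fold, Prim1 4.34-fold, Pole 6.15-fold and Lig1 6.71-fold. The clamp gene Pcna had 33.5 and 52.4 CPM in Arid1a/b DKO livers and 32.6 and 32.4 CPM in 9-day WT livers, and 26.2 and 27.5 CPM in Arid1a KO and 22.5 and 20.3 CPM in WT livers with the agonist. In the nucleotide supply, Rrm2, the regulated subunit of ribonucleotide reductase, spanned 6.69-fold, with 27.3 and 51.97 CPM in Arid1a KO and 5.44 and 12.7 CPM in WT livers under the agonist. Its partner Rrm1 spanned 2.54-fold and the thymidylate synthase gene Tyms 1.95-fold. The thymidine kinase gene Tk1 had its highest mean in 9-day Arid1a KO livers, 105 ± 36.2 CPM (SD, n = 2), and its lowest in agonist-treated Arid1a KO livers, 25.7 ± 16.5 CPM (SD, n = 2). Tk1 shares 83 exon bases with Afmid, which had 192 and 161 CPM in 9-day Arid1a KO livers and 30.3 and 66.7 CPM in agonist-treated Arid1a KO livers.

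Among the regulators, Ccne1 and Ccne2 encode the E cyclins, E2f1 and E2f2 encode activating E2F factors, E2f7 and E2f8 encode atypical repressing ones, and Mybl2 encodes a Myb factor that acts in S phase and G2. The group means spanned 3.72-fold in Ccne2, 4.83-fold in E2f1, 5.14-fold in Mybl2, 6.44-fold in E2f8, 9.18-fold in Ccne1, 10.2-fold in E2f7 and 12.7-fold in E2f2. E2f1 had 16.3 and 25.7 CPM in agonist-treated Arid1a KO livers and 5.92 and 4.52 CPM in agonist-treated WT livers. Ccne1 differed between the libraries of most groups, with 0.686 and 14.4 CPM in 30-day Arid1a KO livers and 1.15 and 5.99 CPM in 30-day WT livers. Chek1 encodes the replication checkpoint kinase, Brca1 a repair factor and Uhrf1 the factor that keeps DNA methylation through replication. Brca1 spanned 6.47-fold and Chek1 11.8-fold. Uhrf1 had 35.2 and 49.9 CPM in Arid1a/b DKO livers and 8.69 and 7.32 CPM in 9-day WT livers, against 0.863 and 0.590 CPM in 30-day WT livers.

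**Figure D2:**
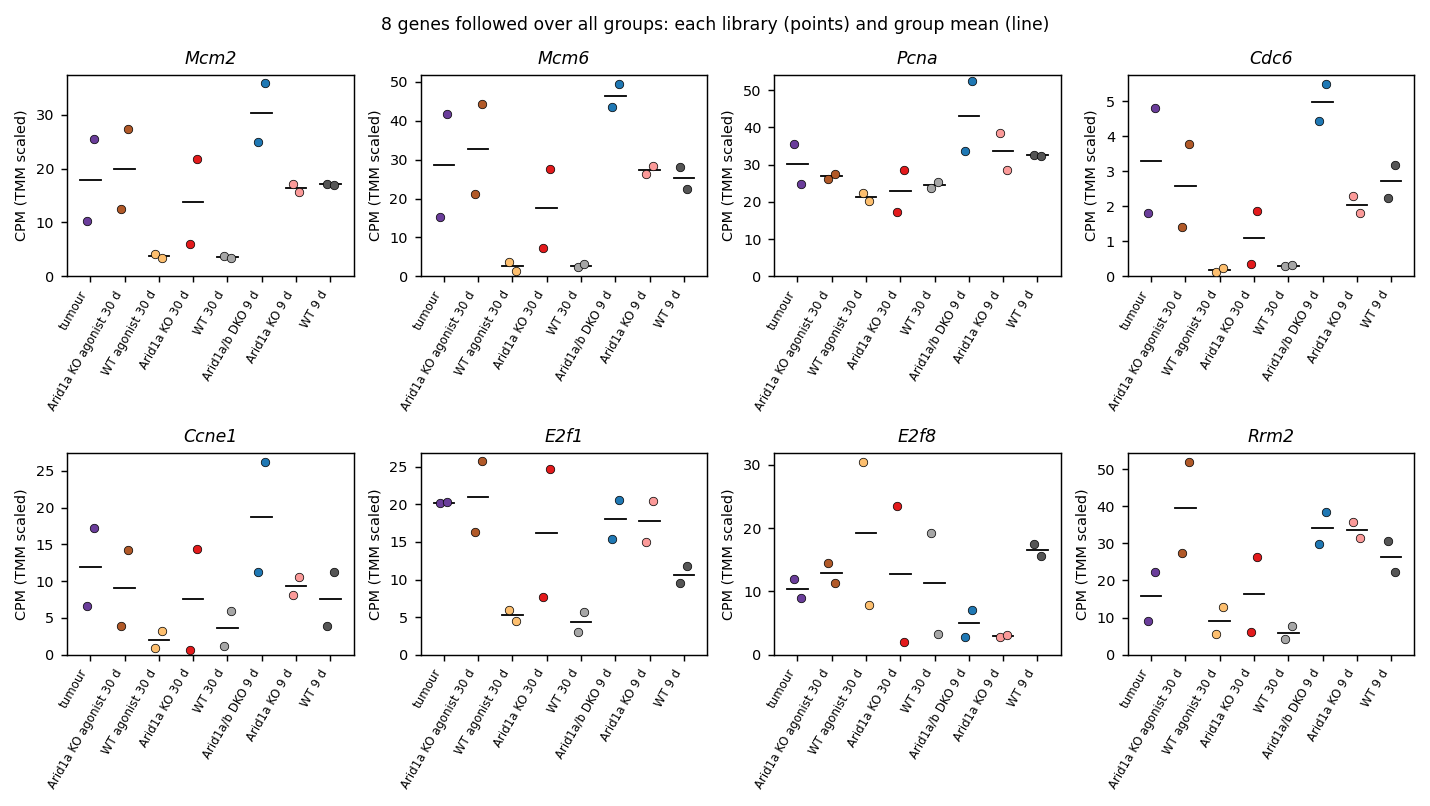
CPM of Mcm2, Mcm6, Pcna, Cdc6, Ccne1, E2f1, E2f8 and Rrm2 in each library (points, replicate 1 left) with the mean of 2 libraries (line) for the 8 groups. Mcm2, Mcm6 and Cdc6 have their lowest points in the 30-day WT groups, the group means of Pcna span 2.01-fold, and the 2 libraries of the 30-day vehicle groups lie far apart in E2f8 and Ccne1.

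At 9 days, 1 of the 36 genes was called between livers labelled Arid1a KO and WT livers. E2f2 rose 6.24-fold, with 18.96 and 24.3 CPM in Arid1a KO livers and 3.78 and 3.18 CPM in WT livers (log2 fold change 2.64, SE 0.32, adjusted p = 0.00753). Both Arid1a KO libraries lay above both WT libraries. Over all genes tested, 0.566% were called in this comparison. E2f8 had 2.81 and 3.13 CPM in Arid1a KO livers and 17.5 and 15.7 CPM in WT livers, which did not overlap. Its difference was not called in the liver fit (log2 fold change -2.47, SE 1.08, adjusted p = 0.449). With edgeR it was called with only the libraries compared (log2 fold change -2.47, adjusted p = 0.0189) and without the low-count filter (log2 fold change -2.48, adjusted p = 7.46e-09). The log2 fold change of E2f8 was thus nearly the same in these fits, while its adjusted p was not. DESeq2 called 1 of the 36 genes, E2f2, and not E2f8. E2f7 had 13.3 and 4.65 CPM in Arid1a KO livers and 1.61 and 4.17 CPM in WT livers (log2 fold change 1.59, SE 0.85, adjusted p = 0.581). It was called only without the low-count filter (log2 fold change 1.56, adjusted p = 0.0189). Over the 36 genes the median log2 fold change was 0.12, against 0.00 for all genes tested, and it was -0.02 without Arid1a KO replicate 1 and 0.03 without WT replicate 2. Of the 48 other replication genes, 18 other G1/S regulators (kinases, cyclins, pocket proteins and transcription factors), 7 CDK inhibitors and 12 mitosis genes, 0 were called. Unadjusted p was under 0.05 for 0, 3, 1 and 0 of these genes, and DESeq2 called 0, 1, 0 and 0. With 1 library left out, E2f2 missed the threshold without WT replicate 1 (adjusted p = 0.0647), WT replicate 2 (0.0685) or Arid1a KO replicate 2 (0.0574), at log2 fold changes of 2.45 to 2.76.

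Vehicle-treated WT livers held less transcript of most replication genes at 30 days than at 9 days, without a call for any single gene. Both 30-day libraries lay below both 9-day libraries for 30 of the 36 genes, against 20.6% of all genes tested. The median log2 fold change was -1.15 over the 36 genes and -0.01 over all genes tested. Mcm6 had 2.30 and 3.13 CPM at 30 days and 28.2 and 22.4 CPM at 9 days (log2 fold change -3.19, SE 0.62, adjusted p = 0.143). Chek1 had 0.480 and 0.499 CPM at 30 days and 4.99 and 3.09 CPM at 9 days (log2 fold change -3.01, SE 0.60, adjusted p = 0.143). Cdc6 had 0.288 and 0.318 CPM at 30 days and 2.25 and 3.18 CPM at 9 days (log2 fold change -3.14, SE 0.73, adjusted p = 0.224). For each of the 3 the times did not overlap. edgeR called 0 of 36 genes and 0.0224% of all genes, and 16 of the 36 had an unadjusted p under 0.05. DESeq2 called 8 of the 36 and 281 of all genes. The 12 mitosis genes summed to 9.72 to 9.97 CPM at 30 days and 32.8 to 87.3 CPM at 9 days, and macrophage markers to 197 to 578 CPM at 30 days and 787 to 1481 CPM at 9 days. The part of cell composition in the difference was not tested. Of the 48, 18, 7 and 12 genes of the other lists 0 were called; unadjusted p was under 0.05 for 10, 5, 0 and 11 of these genes, and DESeq2 called 4, 2, 0 and 9.

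In livers labelled Arid1a KO the same span of time gave a median that turned on 1 library. Between 30 and 9 days the 36 genes had a median log2 fold change of -0.26, against 0.01 over all genes tested. It was 0.11 without replicate 1 of the 30-day livers and -1.28 without replicate 2. E2f2 had 7.88 and 10.98 CPM at 30 days and 18.96 and 24.3 CPM at 9 days (log2 fold change -1.19, SE 0.30, adjusted p = 0.505). Mcm10 had 189 and 214 CPM at 30 days and 101 and 83.1 CPM at 9 days (log2 fold change 1.14, SE 0.32, adjusted p = 0.549). Pcna had 17.3 and 28.7 CPM at 30 days and 38.6 and 28.5 CPM at 9 days (log2 fold change -0.53, SE 0.27, adjusted p = 0.764). edgeR called 0 of 36 genes and 0.0112% of all genes, 2 of the 36 had an unadjusted p under 0.05, and DESeq2 called 0. The difference between the genotypes in this time course was tested as an interaction, which called 0 of 36 genes and 0% of all genes. Of the 36, 7 had an unadjusted p under 0.05, and DESeq2 called 0. The smallest p belonged to Orc1 (log2 difference 4.03, SE 1.18, adjusted p = 1), Mcm6 (log2 difference 2.58, SE 0.81, adjusted p = 1) and Chek1 (log2 difference 2.34, SE 0.78, adjusted p = 1), each for the Arid1a KO time course minus the WT one. The Orc1 value rests on 1 and 1 counts in the 30-day WT livers and depends on the prior count of the fit.

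At 30 days, E2f2 again differed between Arid1a KO and WT livers, and the 2 Arid1a KO livers differed from each other, with 31 of the 36 genes higher in replicate 2. E2f2 had 7.88 and 10.98 CPM in Arid1a KO livers and 2.49 and 2.45 CPM in WT livers, a rise of 3.84-fold (log2 fold change 1.94, SE 0.33, adjusted p = 0.0307). It was the only gene of the 36 to be called, where 0.516% of all genes were. Mcm6 had 7.31 and 27.7 CPM in Arid1a KO livers and 2.30 and 3.13 CPM in WT livers (log2 fold change 2.69, SE 0.61, adjusted p = 0.107). Uhrf1 had 1.60 and 14.5 CPM in Arid1a KO livers and 0.863 and 0.590 CPM in WT livers (log2 fold change 3.58, SE 0.86, adjusted p = 0.134). In both genes the groups did not overlap, and replicate 2 of the Arid1a KO livers was far above replicate 1. In all, 21 of the 36 genes were higher in both Arid1a KO libraries than in both WT libraries, against 17.8% of all genes tested.

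At 30 days the median log2 fold change of the 36 genes was 1.29, against 0.03 over all genes tested, and it depended on that library. It was 0.28 without replicate 2 of the Arid1a KO livers and 1.66 without replicate 1. The count of genes called was 9 without replicate 1 and 0 without replicate 2 of the Arid1a KO livers. It was 0 without WT replicate 1 and 0 without WT replicate 2. The call of E2f2 was lost without Arid1a KO replicate 2 (adjusted p = 0.233) and without either WT library (0.18 and 0.311). The 10 stellate cell markers summed to 329 CPM in Arid1a KO replicate 1, 655 CPM in Arid1a KO replicate 2 and 319 to 325 CPM in WT livers. The 8 cholangiocyte markers summed to 127 CPM in Arid1a KO replicate 1, 299 CPM in Arid1a KO replicate 2 and 75.1 to 75.5 CPM in WT livers. The part of these cells in the result was not tested. Of the 48, 18, 7 and 12 genes of the other lists 0 were called; unadjusted p was under 0.05 for 8, 8, 2 and 5 of these genes, and DESeq2 called 1, 0, 1 and 2. DESeq2 called 6 of the 36 genes and 407 of all genes, where edgeR called 92 of all genes.

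Under the agonist, 13 of the 36 genes rose and 1 fell in Arid1a KO livers relative to WT livers, which was the largest number called between livers of 2 genotypes. Over all genes tested, 3.05% were called higher and 1.91% lower. The genes that rose were loading factors and helicase subunits (Orc1, Cdc6, Mcm2, Mcm3, Mcm4, Mcm5 and Mcm6), 2 GINS subunits (Gins2 and Gins3), both activating E2F genes (E2f1 and E2f2), Chek1 and Uhrf1. Mcm10 fell. The polymerase, clamp and nucleotide supply genes were not called.

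Uhrf1 had 6.88 and 19.5 CPM in Arid1a KO livers and 0.484 and 0.480 CPM in WT livers (log2 fold change 4.78, SE 0.92, adjusted p = 0.018). Mcm6 had 21.1 and 44.3 CPM in Arid1a KO livers and 3.75 and 1.40 CPM in WT livers (log2 fold change 3.80, SE 0.65, adjusted p = 0.0106). Mcm5 had 10.2 and 22.8 CPM in Arid1a KO livers and 1.69 and 2.24 CPM in WT livers (log2 fold change 3.04, SE 0.59, adjusted p = 0.0183). In each of these genes even the lower Arid1a KO library stood above both WT libraries. The loading factor Cdc6 had 1.41 and 3.77 CPM in Arid1a KO livers and 0.121 and 0.240 CPM in WT livers (log2 fold change 3.68, SE 0.78, adjusted p = 0.0238). In WT replicate 1, 3 counts equal 0.363 CPM, so Cdc6 was near the floor there. Its log2 fold change was 2.76 without Arid1a KO replicate 2 and 4.40 without WT replicate 2, so its size is uncertain. Orc1 had 1.12 and 1.75 CPM in Arid1a KO livers and 0.121 and 0.120 CPM in WT livers (log2 fold change 3.55, SE 0.83, adjusted p = 0.0369), where the WT values come from 1 and 3 counts, so the size of its change is poorly known. E2f2 had 14.1 and 14 CPM in Arid1a KO livers and 1.81 and 1.60 CPM in WT livers (log2 fold change 3.06, SE 0.34, adjusted p = 0.00214), with little spread inside either group. The other 7 genes that rose had log2 fold changes from 1.84 for Gins3 to 3.02 for Gins2.

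Both Arid1a KO libraries lay above both WT libraries for 29 of the 36 genes, against 26.1% of all genes tested, and the median log2 fold change was 1.65, against -0.01 over all genes tested. This median was 0.93 without Arid1a KO replicate 2. All 12 mitosis genes rose as well, led in p by Top2a (log2 fold change 3.69, SE 0.61, adjusted p = 0.0099), Aurkb (log2 fold change 3.44, SE 0.58, adjusted p = 0.0104), Ccnb2 (log2 fold change 4.33, SE 0.73, adjusted p = 0.0104) and Mki67 (log2 fold change 3.88, SE 0.66, adjusted p = 0.0104). Of the 48 other replication genes 4 rose, among them Dck, Clspn and Hells, at log2 fold changes of 0.998 to 3.45. Of the 18 other G1/S regulators 5 rose, among them Ccna2 (log2 fold change 3.63, SE 0.54, adjusted p = 0.00636), Cdk6, Rbl1 and cyclin D1 (Ccnd1, log2 fold change 2.78, SE 0.63, adjusted p = 0.0326). Of the 7 CDK inhibitors Cdkn1a rose (log2 fold change 4.39, SE 0.79, adjusted p = 0.0137). Stellate cell markers summed to 528 to 979 CPM in Arid1a KO livers and 284 to 292 CPM in WT livers and cholangiocyte markers to 249 to 364 CPM in Arid1a KO livers and 57.1 to 72.2 CPM in WT livers, with 2 of 10 and 1 of 8 called higher. Their part in the result was not tested. With 1 library left out the number of the 36 genes called was 8 without Arid1a KO replicate 1, 3 without Arid1a KO replicate 2, 3 without WT replicate 1 and 2 without WT replicate 2. E2f2 and Mcm10 were called in all 4 of these fits. The other 12 genes lost their call without WT replicate 2, at adjusted p = 0.136 to 0.31, and each kept its direction.

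**Figure D3:**
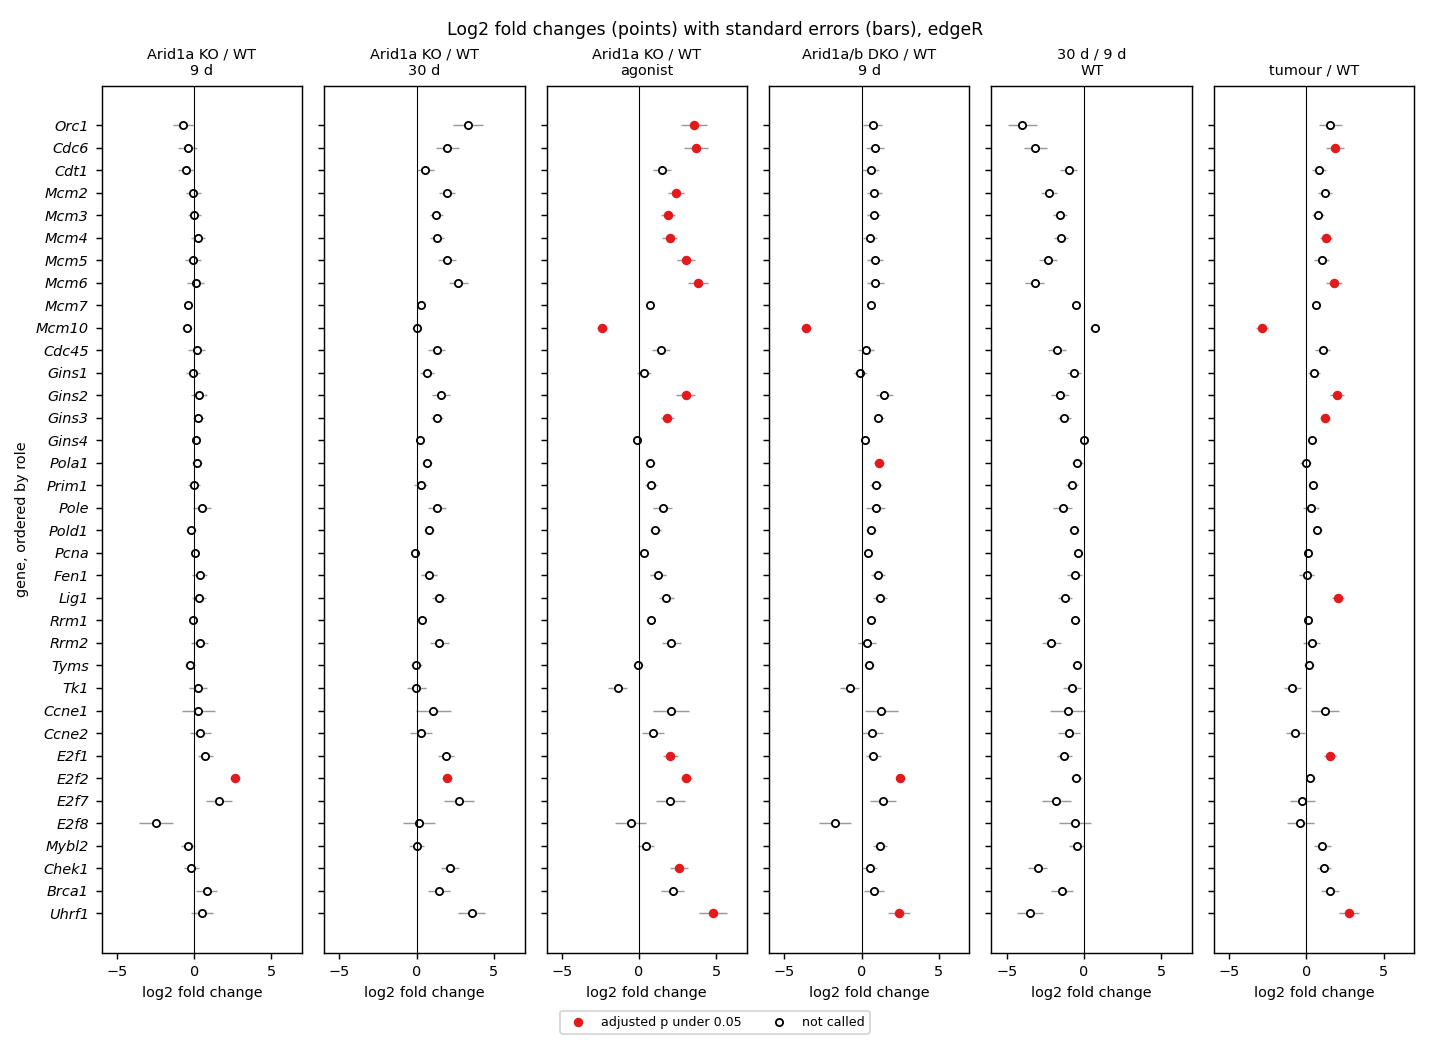
Log2 fold change (points) and standard error (bars) of each of the 36 genes in 6 comparisons, filled where edgeR's adjusted p is under 0.05. Arid1a KO over WT under the agonist has 14 filled points. WT livers at 30 over 9 days have none, although 34 of 36 points lie left of 0. E2f2 is filled in each panel of Arid1a KO or DKO over WT livers. Mcm10 is filled left of 0 under the agonist, in DKO livers and in tumours.

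For the agonist against vehicle at 30 days, 0 of these genes were called in WT livers and 1 in Arid1a KO livers. In WT livers, agonist against 30-day vehicle, edgeR called 0 of 36 genes and 0.028% of all genes, 0 of the 36 had an unadjusted p under 0.05 and DESeq2 called 0. E2f2 had 1.81 and 1.60 CPM with the agonist and 2.49 and 2.45 CPM with vehicle (log2 fold change -0.55, SE 0.35, adjusted p = 1). Mcm5 had 1.69 and 2.24 CPM with the agonist and 4.70 and 2.86 CPM with vehicle (log2 fold change -0.88, SE 0.59, adjusted p = 1). Mybl2 had 0.484 and 0.400 CPM with the agonist and 0.767 and 0.681 CPM with vehicle (log2 fold change -0.73, SE 0.53, adjusted p = 1). In all 3 genes both treated libraries lay below both vehicle libraries. A median log2 fold change of -0.20 was found over the 36 genes and of 0.00 over all genes tested. Against 9-day WT vehicle livers, the time given in the titles, the median was -1.30 and again 0 genes were called. Of the 48, 18, 7 and 12 genes of the other lists 0 were called; unadjusted p was under 0.05 for 1, 0, 1 and 0 of these genes, and DESeq2 called 0, 0, 0 and 0.

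In Arid1a KO livers Mcm10 fell to 26.9 and 62.9 CPM with the agonist, against 189 and 214 CPM with vehicle (log2 fold change -2.16, SE 0.33, adjusted p = 0.0151). This was 1 of 36 genes, where 0.869% of all genes were called. With only the libraries compared Mcm10 was not called by edgeR (log2 fold change -2.16, adjusted p = 0.192). Rrm2 had 27.3 and 51.97 CPM with the agonist and 6.17 and 26.3 CPM with vehicle (log2 fold change 1.26, SE 0.59, adjusted p = 0.405), and E2f2 had 14.1 and 14 CPM with the agonist and 7.88 and 10.98 CPM with vehicle (log2 fold change 0.57, SE 0.30, adjusted p = 0.486). The 36 genes had a median log2 fold change of 0.24, against -0.02 over all genes tested. It was -0.14 without vehicle replicate 1, 1.09 without vehicle replicate 2, 0.55 without agonist replicate 1 and -0.20 without agonist replicate 2, so its sign depended on the library. The mitosis genes had a median of 2.07, against -0.02 over all genes tested, but edgeR called 0 of the 12. All 12 had an unadjusted p under 0.05. DESeq2, which called 638 of all genes against 155 with edgeR, called 8 of the mitosis genes. Cell type markers moved beside them: macrophage markers summed to 778 to 1284 CPM with the agonist and 570.2 to 698 CPM with vehicle, erythroid markers to 107 to 175 CPM with the agonist and 375 to 585 CPM with vehicle, and hepatocyte markers to 27350.2 to 31362 CPM with the agonist and 33752 to 47185 CPM with vehicle. Their part in the result was not tested. Cyclin A2 (Ccna2, log2 fold change 2.54, SE 0.50, adjusted p = 0.046) and the CDK inhibitor gene Cdkn2c (log2 fold change 1.94, SE 0.36, adjusted p = 0.0329) rose. Mcm10 lost its call without vehicle replicate 1 (adjusted p = 0.0625), and 3 genes were called without vehicle replicate 2. Of the 48 other replication genes 0 were called, 3 had an unadjusted p under 0.05 and DESeq2 called 0. The genotype by agonist interaction called 0 of 36 genes and 0.00561% of all genes with edgeR, and 2 of the 36 had an unadjusted p under 0.05. With DESeq2 the interaction called 1 of the 36 and 126 of all genes. Its smallest p belonged to Mcm10 (log2 difference -2.39, SE 0.45, adjusted p = 0.203), E2f2 (log2 difference 1.12, SE 0.46, adjusted p = 0.836) and Gins2 (log2 difference 1.44, SE 0.83, adjusted p = 1). Mcm10 was called without Arid1a KO agonist replicate 2 (adjusted p = 0.0498).

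Arid1a/b DKO livers, which had the highest levels of most of these genes, had 3 genes called higher and 1 lower than WT livers at 9 days. In the same comparison 12.6% of all genes tested were called higher and 13.8% lower. Uhrf1 had 35.2 and 49.9 CPM in Arid1a/b DKO livers and 8.69 and 7.32 CPM in WT livers (log2 fold change 2.42, SE 0.72, adjusted p = 0.0312). E2f2 had 13.8 and 25.9 CPM in DKO livers and 3.78 and 3.18 CPM in WT livers (log2 fold change 2.53, SE 0.32, adjusted p = 4.31e-04). Both genes stood above every 9-day WT library. The primase partner gene Pola1 had 15.7 and 19.8 CPM in DKO livers and 8.53 and 7.83 CPM in WT livers (log2 fold change 1.12, SE 0.34, adjusted p = 0.0321). Mcm10 fell to 8.77 and 11.7 CPM in DKO livers, against 113 and 137 CPM in WT livers (log2 fold change -3.60, SE 0.35, adjusted p = 1.09e-04). In all 4 genes the groups did not overlap. Of the helicase and loading genes 0 of 9 were called, with 1 at an unadjusted p under 0.05; Mcm6 had 43.4 and 49.5 CPM in DKO livers and 28.2 and 22.4 CPM in WT livers.

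In all, 26 of the 36 genes were higher in both DKO libraries than in both WT libraries, against 33.5% of all genes tested. Over the 36 genes the median log2 fold change was 0.78, against 0.01 over all genes tested, and 0.37 without DKO replicate 2. The mitosis genes had a median of 2.12 and 9 of 12 rose, led in p by Aurkb (log2 fold change 2.22, SE 0.49, adjusted p = 0.00851), Top2a (log2 fold change 2.35, SE 0.54, adjusted p = 0.0105), Kif11 (log2 fold change 2.13, SE 0.52, adjusted p = 0.0139) and Mki67 (log2 fold change 2.08, SE 0.58, adjusted p = 0.0232). Of the 48 other replication genes 6 rose and 1 fell, among them Cdc7, the kinase that fires origins (log2 fold change 1.89, SE 0.40, adjusted p = 0.00726), the checkpoint mediator gene Clspn (log2 fold change 2.75, SE 0.62, adjusted p = 0.00909), Dck and Orc2. Of the 18 other G1/S regulators 6 rose, among them E2f3 (log2 fold change 1.17, SE 0.22, adjusted p = 0.00407), Ccna2 (log2 fold change 2.01, SE 0.47, adjusted p = 0.011), Tfdp2 and E2f6. Of the 7 CDK inhibitors 3 rose, Cdkn2b (log2 fold change 4.14, SE 0.74, adjusted p = 0.00282), Cdkn1a (log2 fold change 2.74, SE 0.71, adjusted p = 0.0175) and Cdkn2a (log2 fold change 2.32, SE 0.74, adjusted p = 0.0398). Of 10 stellate cell markers 7 were called higher, at a sum of 1168 to 2456 CPM in DKO livers and 283 to 370.1 CPM in WT livers, and 5 of 10 hepatocyte markers were called lower. Macrophage markers summed to 1610.5 to 2837 CPM in DKO livers and 787 to 1481 CPM in WT livers. The part of these cells in the result was not tested. E2f2 and Mcm10 were called with any 1 library left out, while Uhrf1 and Pola1 lost their call in each of the 4 fits, at adjusted p = 0.0606 (without DKO replicate 1) to 0.147 (without DKO replicate 2). The number called was 5 without DKO replicate 1, and 2 without DKO replicate 2 or either WT library.

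Against Arid1a KO livers of the same age, Arid1a/b DKO livers had 2 genes called higher and 1 lower, where 9.92% of all genes were called higher and 12.1% lower. Both comparisons of DKO livers use the same 2 DKO libraries. Mcm10 fell to 8.77 and 11.7 CPM in DKO livers, against 101 and 83.1 CPM in Arid1a KO livers (log2 fold change -3.16, SE 0.34, adjusted p = 2.15e-04). The helicase subunit gene Mcm7 had 34.4 and 50.4 CPM in DKO livers and 22.4 and 19.5 CPM in Arid1a KO livers (log2 fold change 1.02, SE 0.25, adjusted p = 0.016). Mybl2 had 2.01 and 2.53 CPM in DKO livers and 0.889 and 0.642 CPM in Arid1a KO livers (log2 fold change 1.59, SE 0.46, adjusted p = 0.0311). In these 3 genes the groups did not overlap. E2f2 was not called, with 13.8 and 25.9 CPM in DKO livers and 18.96 and 24.3 CPM in Arid1a KO livers (log2 fold change -0.12, SE 0.30, adjusted p = 0.81). Over the 36 genes the median log2 fold change was 0.76, against 0.02 over all genes tested, and it was 1.09 without DKO replicate 1 and 0.24 without DKO replicate 2. Of the mitosis genes 5 of 12 rose, among them Kif11, Cdk1, Aurkb and Top2a at log2 fold changes of 1.88, 1.75, 1.69 and 1.73. Of the 48 other replication genes 6 rose and 1 fell, among them Cdc7, Dck and Orc2, which rose. Of the 18 other G1/S regulators 4 rose, among them Tfdp2, Ccna2 and Myc, and Rbl2 (log2 fold change -0.85, SE 0.21, adjusted p = 0.0163) fell. Among the 7 CDK inhibitors Cdkn2b rose (log2 fold change 4.60, SE 0.77, adjusted p = 0.00246). Stellate cell markers summed to 1168 to 2456 CPM in DKO livers and 451 to 464 CPM in Arid1a KO livers. Endothelial markers summed to 647 to 711 CPM in DKO livers and 242 to 274 CPM in Arid1a KO livers, and hepatocyte markers to 24437 to 24709.5 CPM in DKO livers and 34121 to 41043 CPM in Arid1a KO livers. The part of these cells in the result was not tested. Mcm7 and Mybl2 lost their call without DKO replicate 2 (adjusted p = 0.12 and 0.118), without Arid1a KO replicate 1 (0.0718 and 0.101) or without Arid1a KO replicate 2 (0.118 and 0.2), and Mybl2 also without DKO replicate 1 (0.0594). These fits called 1 gene each without DKO replicate 2 or either Arid1a KO library, and 4 without DKO replicate 1.

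In tumours, 8 of the 36 genes rose and 1 fell relative to the 4 WT vehicle livers of both times, where 20.5% of all genes tested were called higher and 16.1% lower. Lig1 had 18.5 and 36.99 CPM in tumours, against 4.41 and 4.40 CPM in 30-day and 10.5 and 10.4 CPM in 9-day WT livers (log2 fold change 2.04, SE 0.39, adjusted p = 0.00204). Gins2 had 6.13 and 7.58 CPM in tumours, against 1.15 and 0.863 CPM in 30-day and 4.26 and 1.81 CPM in 9-day WT livers (log2 fold change 2.00, SE 0.45, adjusted p = 0.00471). E2f1 had 20.2 and 20.3 CPM in tumours, against 2.97 and 5.72 CPM in 30-day and 9.49 and 11.8 CPM in 9-day WT livers (log2 fold change 1.56, SE 0.39, adjusted p = 0.0087). Both tumours lay above all 4 WT livers in these 3 genes. Uhrf1 (log2 fold change 2.74, SE 0.64, adjusted p = 0.00598), Gins3 (log2 fold change 1.22, SE 0.34, adjusted p = 0.0144) and Mcm4 (log2 fold change 1.28, SE 0.39, adjusted p = 0.022) rose without overlap too. Mcm6 (log2 fold change 1.78, SE 0.51, adjusted p = 0.017) and Cdc6 (log2 fold change 1.87, SE 0.58, adjusted p = 0.0252) were called although replicate 1 of the tumours lay below both 9-day WT livers. Mcm10 fell to 13.4 and 30.1 CPM in tumours, against 206 and 197 CPM in 30-day and 113 and 137 CPM in 9-day WT livers (log2 fold change -2.85, SE 0.39, adjusted p = 2.14e-04).

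The median log2 fold change of the 36 genes in tumours over WT livers was 0.73, against 0.02 over all genes tested, and 0.27 without tumour replicate 2. Of the mitosis genes 10 of 12 rose, led in p by Top2a (log2 fold change 2.58, SE 0.45, adjusted p = 0.00109), Cdk1 (log2 fold change 2.26, SE 0.47, adjusted p = 0.00329), Plk1 and Ccnb1. Of the 48 other replication genes 9 rose and 2 fell, led in p by the replication fork gene Donson (log2 fold change 1.98, SE 0.25, adjusted p = 1.38e-04), with Clspn and Rfc3 rising. Of the 18 other G1/S regulators 8 rose and 2 fell, among them cyclin D2 (Ccnd2, log2 fold change 1.51, SE 0.28, adjusted p = 0.00153) and Ccna2, which rose, and Rbl2 and Tfdp2, which fell. Of the 7 CDK inhibitors Cdkn1a (log2 fold change 3.18, SE 0.54, adjusted p = 9.28e-04) and Cdkn2b (log2 fold change 3.11, SE 0.58, adjusted p = 0.00162) rose and Cdkn1b (log2 fold change -0.82, SE 0.19, adjusted p = 0.00524) fell. Macrophage markers summed to 387 to 522 CPM in tumours, against 197 to 578 CPM in 30-day and 787 to 1481 CPM in 9-day WT livers, and erythroid markers to 536 to 608 CPM in tumours, 242 to 408 CPM and 101 to 148 CPM. Of 12 macrophage markers 6 were called lower and 1 higher, and of 7 erythroid markers 4 were called higher. The part of these cells in the result was not tested. Without tumour replicate 2 the number of genes called was 5, and Uhrf1, Gins3, Mcm4, Mcm6 and Cdc6 lost their call, at adjusted p = 0.0823 to 0.365. Leaving out 1 WT library took away calls of Mcm4, Mcm6 or Cdc6, at adjusted p = 0.0501 (Cdc6 without 9-day replicate 2) to 0.0749 (Cdc6 without 9-day replicate 1).

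Relative to the 4 Arid1a KO vehicle livers of both times, Lig1 rose in tumours and E2f2, E2f7 and Mcm10 fell, where 18% of all genes were called higher and 15.2% lower. E2f2 had 2.61 and 4.24 CPM in tumours, against 7.88 and 10.98 CPM in 30-day and 18.96 and 24.3 CPM in 9-day Arid1a KO livers (log2 fold change -2.04, SE 0.32, adjusted p = 6.97e-04). The tumours, whose label also names the Arid1a KO, thus lay below all 4 Arid1a KO livers in E2f2. E2f7 had 1.93 and 0.859 CPM in tumours, against 9.71 and 2.30 CPM in 30-day and 13.3 and 4.65 CPM in 9-day Arid1a KO livers (log2 fold change -2.43, SE 0.86, adjusted p = 0.0459). Mcm10 had a log2 fold change of -2.63 (SE 0.38, adjusted p = 3.90e-04) and Lig1 of 1.16 (SE 0.39, adjusted p = 0.0397). The median over the 36 genes was 0.25, against 0.00 over all genes tested, and it was 0.59 without replicate 2 of the 30-day Arid1a KO livers and -0.29 without tumour replicate 2. The number called was 2 without replicate 1 of the 9-day and 9 without replicate 2 of the 30-day Arid1a KO livers. Lig1 lost its call without tumour replicate 2 (adjusted p = 0.454), without 30-day Arid1a KO replicate 1 (0.0956) and without either 9-day library (0.0903 and 0.114). E2f7 lost it without either tumour (0.0833 and 0.2) and without replicate 1 of the 30-day (0.113) or 9-day Arid1a KO livers (0.11). With RLE scaling E2f7 was not called either (adjusted p = 0.0524), nor were E2f7 and Lig1 with only the libraries compared (0.08 and 0.0924). Of 12 macrophage markers 8 were called lower and 1 higher, and their part in the result was not tested. Of the mitosis genes Cdk1 (log2 fold change 1.60, SE 0.46, adjusted p = 0.0196) and Plk1 (log2 fold change 1.95, SE 0.62, adjusted p = 0.0302) rose. Of the 48, 18 and 7 genes of the other lists 4, 4 and 2 rose and 3, 3 and 1 fell, among them Donson, Rnaseh2a, Ccnd2 and Cdkn2b, which rose, and Orc3, Rbl2, Tfdp2, E2f6 and Cdkn1b, which fell.

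Between tumours and agonist-treated Arid1a KO livers E2f2 was the only one of the 36 genes to be called, where 20.1% of all genes were. It had 2.61 and 4.24 CPM in tumours and 14.1 and 14 CPM in agonist-treated Arid1a KO livers (log2 fold change -2.01, SE 0.35, adjusted p = 0.00286). Mcm10 had 13.4 and 30.1 CPM in tumours and 26.9 and 62.9 CPM in agonist-treated Arid1a KO livers (log2 fold change -1.04, SE 0.39, adjusted p = 0.0791). It was called without tumour replicate 2 (adjusted p = 0.0156) and without agonist replicate 1 (0.0399), fits that called 3 and 2 genes. Mybl2 had 2.95 and 0.657 CPM in tumours and 0.843 and 0.397 CPM in agonist-treated Arid1a KO livers (log2 fold change 1.52, SE 0.67, adjusted p = 0.127), and was called without tumour replicate 2 (0.0177). A median log2 fold change of 0.09 was found over the 36 genes and of -0.01 over all genes tested, and the first of these was -0.37 without tumour replicate 2, -0.29 without agonist replicate 1 and 0.53 without agonist replicate 2. Of the 12 mitosis genes and 7 CDK inhibitors 0 were called, 0 and 1 had an unadjusted p under 0.05, and DESeq2 called 0 and 0. Donson, Rnaseh2a, Ccnd2, E2f4 and Cdk4 rose in tumours, and Dck, Orc3 and E2f6 fell. Macrophage markers summed to 387 to 522 CPM in tumours and 778 to 1284 CPM in agonist-treated Arid1a KO livers, with 9 of 12 called lower, and their part in the result was not tested.

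Mcm10, a replication factor that binds the helicase and helps to activate it, had its lowest levels in Arid1a/b DKO livers, tumours and agonist-treated Arid1a KO livers. Its gene lies on chromosome 2 at 4989714 to 5012791 of GRCm38 on the minus strand. The level was 229 and 242 CPM in agonist-treated WT livers, 189 and 214 CPM in 30-day Arid1a KO livers and 206 and 197 CPM in 30-day WT livers. It was 101 and 83.1 CPM in Arid1a KO livers and 113 and 137 CPM in WT livers at 9 days. None of the 3 groups with the lowest levels overlapped any of the other 5. The 30-day Arid1a KO livers had Mcm10 levels close to those of 30-day WT livers in both libraries, also in replicate 2, where Mcm2 and Mcm6 were high. In GENCODE M21 no exon of another gene overlaps Mcm10. Of its neighbours, Optn on the same strand had 73.5 and 81.7 CPM in Arid1a/b DKO livers and 170.5 and 162 CPM in 9-day WT livers (log2 fold change -1.09, SE 0.21, adjusted p = 0.00462). In tumours Optn had 179 and 218 CPM, against 151 and 186 CPM in 30-day WT livers, and was not called (log2 fold change 0.25, SE 0.19, adjusted p = 0.329).

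E2f2 separated Arid1a KO from WT livers in each of the 3 matched comparisons, the only gene of the 36 to be called in all of them. It stood at 14.1 and 14 CPM in Arid1a KO and 1.81 and 1.60 CPM in WT livers with the agonist, at 7.88 and 10.98 CPM in Arid1a KO and 2.49 and 2.45 CPM in WT livers at 30 days, and at 18.96 and 24.3 CPM in Arid1a KO and 3.78 and 3.18 CPM in WT livers at 9 days. All 6 Arid1a KO livers and both Arid1a/b DKO livers were above 4.24 CPM, the highest value in a tumour or WT liver. E2f8, in contrast, was lower in both Arid1a KO livers than in both WT livers at 9 days, without a call in the liver fit. The 2 libraries of each 30-day vehicle group lay far apart in E2f8, with 23.5 and 1.93 CPM in Arid1a KO and 19.2 and 3.31 CPM in WT vehicle livers. It shares 610 exon bases with the opposite-strand transcript Gm2788, which had 0.382 and 0.449 CPM in Arid1a/b DKO livers, 7.85 and 12.7 CPM in 9-day Arid1a KO livers and 45.4 and 48.7 CPM in 9-day WT livers. Over the 16 libraries Gm2788 had 7896 counts and E2f8 3197. Without the strand setting, reads from the shared bases cannot be told apart, while the exons of E2f8 span 5443 bases in all. Gm2788 fell in Arid1a/b DKO livers relative to WT livers (log2 fold change -6.79, SE 1.17, adjusted p = 0.00234), while E2f8 was not called there (log2 fold change -1.72, SE 1.03, adjusted p = 0.239).

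**Figure D4:**
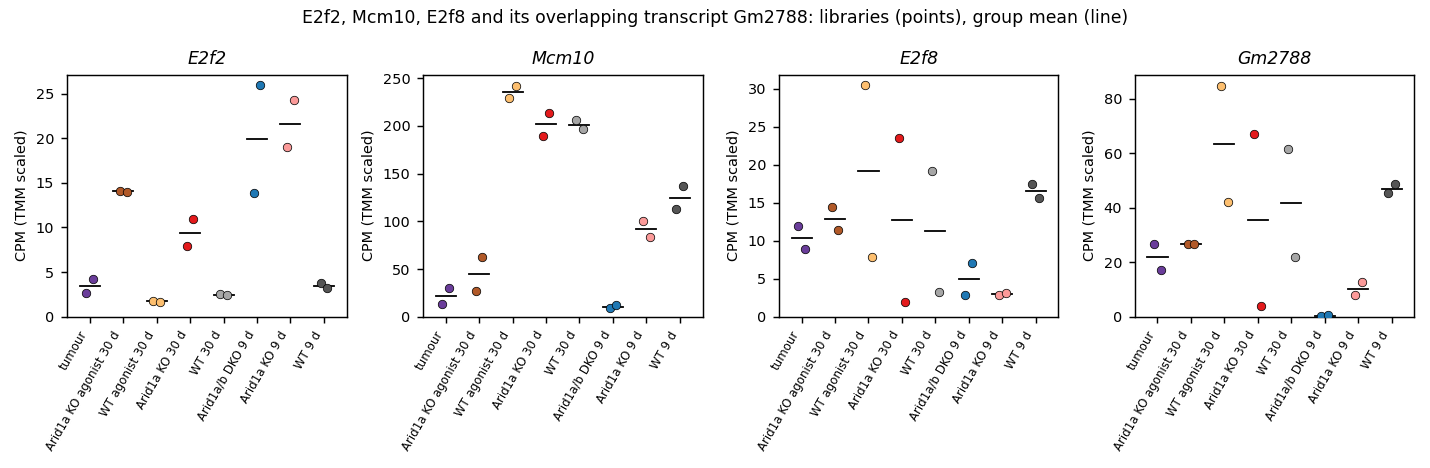
CPM of E2f2, Mcm10, E2f8 and Gm2788 in each library (points, replicate 1 left) with the mean of 2 libraries (line) for the 8 groups. E2f2 is high in Arid1a KO and Arid1a/b DKO livers and low in tumours and WT livers, Mcm10 is lowest in DKO livers at 8.77 and 11.7 CPM, and in E2f8 and Gm2788 alike the libraries of the 30-day vehicle groups lie far apart.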

How the data were processed

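The data are RNA-seq counts per gene of 16 mouse libraries in 8 groups of 2, deposited by the authors as whole-number counts. Per the labels' protocols, RNA was taken with Trizol and columns and libraries were made with a TruSeq kit. Per the submitters' processing notes the tools were fastp, STAR 2.7.3 and featureCounts, with the builds GRCm38.p6 (mm10). The gene annotation and strand setting of the counting are unknown, so antisense pairs are uncertain. Total counts per library were 7.57 to 47.8 M, and intervals and tests cover the spread between these samples.

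Counts were filtered (filterByExpr), scaled (TMM) and tested with edgeR 4.0.16 (quasi-likelihood, R 4.3.3), with Benjamini-Hochberg adjustment over all genes. Liver comparisons used 14 libraries and 17831 genes, with 7 residual degrees of freedom, and tumour comparisons all 16 libraries and 18193 genes. Standard errors are the absolute log2 fold change over the square root of F. Tumours were set against the mean of the 9-day and 30-day vehicle groups. The procedure was tested on simulated data. Positions, exon lengths and exon overlaps came from GENCODE M21, promoters from RefSeq. The alternatives tried were DESeq2 1.42.0, RLE scaling, all genes with at least 1 count, a replicate block, only the libraries compared, and leaving out each library.

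The 36 genes and the pathway and marker lists were chosen with earlier results of these data known. All 36 genes were to be named. Up to 6 called genes with the largest change and no overlap between groups were described per comparison, or the 3 with the smallest p where fewer than 3 were called. In tumours over WT livers all 9 called genes are given. Mcm2, Mcm6, Pcna, Cdc6, Ccne1, E2f1, E2f8 and Rrm2 were followed over all groups. Of each other list up to 4 called genes with the smallest p were named, and 2 genes of these lists are not reported here.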

Additional observations from a re-analysis of the deposited data

How the results depend on the processing

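The number of the 36 genes called was compared under each alternative, and where it moved the cause was not tested. Without the low-count filter it was 3 for Arid1a KO over WT at 9 days, 15 at 30 days and 24 under the agonist, against 1, 1 and 14. It was then 15 for DKO over WT, 14 for DKO over Arid1a KO, 3 for the agonist in Arid1a KO livers and 2 for its interaction with genotype. It was 16 for WT over time, 5 for Arid1a KO over time, 5 for the interaction with time, and 7, 15 and 3 for tumours over Arid1a KO vehicle, WT vehicle and agonist-treated Arid1a KO livers. The share of all genes called without the filter is not given here. These counts alone therefore do not set the 36 genes apart. DESeq2 called 6 genes for Arid1a KO over WT at 30 days, 7 for DKO over WT, 5 for DKO over Arid1a KO, 8 for WT over time, 1 for the agonist interaction and 2 for tumours over agonist-treated Arid1a KO livers. Over all genes, in the same order, DESeq2 called 407, 5338, 4616, 281, 126 and 4585. The main edgeR fit called 92, 4710, 3928, 4, 1 and 3665 of all genes.

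With only the libraries compared the count was 2 for Arid1a KO over WT at 9 days, 0 at 30 days, 7 for DKO over WT, 0 for the agonist in Arid1a KO livers, 3 for WT over time and 2 for tumours over Arid1a KO vehicle livers. For Arid1a KO over WT under the agonist it was 10, where Cdc6, Chek1, Gins3, Mcm3 and Mcm4 lost their call (adjusted p = 0.0552 for Chek1 to 0.0934 for Gins3). Mybl2 lost its call in DKO over Arid1a KO (0.0656) and Gins3 in tumours over WT (0.0612). RLE scaling gave 5 for DKO over WT, 12 for tumours over WT and the reported count elsewhere, and took away the call of E2f7 in tumours over Arid1a KO livers (0.0524). With only replicate 2, an alternative chosen after seeing the data, it was 0 for Arid1a KO over WT under the agonist, a fit that takes the spread of a lone library from the other groups.

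Leaving out 1 library gave 0 to 1 for Arid1a KO over WT at 9 days, 0 to 9 at 30 days and 2 to 8 under the agonist. It gave 2 to 5 for DKO over WT, 1 to 4 for DKO over Arid1a KO, 0 to 3 for the agonist in Arid1a KO livers and 0 to 1 for its interaction. It gave 2 to 9, 5 to 12 and 1 to 3 for tumours over Arid1a KO vehicle, WT vehicle and agonist-treated Arid1a KO livers.

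The labels do not say that replicate numbers pair samples. Deviations of same-numbered libraries correlated at -0.11 to 0.36 (median 0.07), over 0.1 in 12 of 28 pairs of groups. All 6 pairs among the 4 groups of 30 days were over 0.1, at 0.17 to 0.36. With a replicate block the count was 2 for tumours over agonist-treated Arid1a KO livers, 17 for Arid1a KO over WT under the agonist, 6 for DKO over WT and 12 for tumours over WT livers, and it was as reported elsewhere. Of the values of single genes under alternatives, 480 kept their side of the threshold, 112 lost and 30 gained a call, and none of the called values changed sign. The 2 libraries per group and the depth of replicate 1, 7.57 to 32.0 M, limit all counts. Orc1 and Cdc6 had 1 to 3 counts in several libraries.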

Other observations

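Among the 36 genes, Ccne1 was higher in replicate 2 in all 8 groups, with 0.686 and 14.4 CPM in 30-day Arid1a KO livers and 0.846 and 3.24 CPM in agonist-treated WT livers. E2f8 was higher in replicate 1 in 6 of 8 groups, and Mybl2 in 7 of 8. The clock genes Dbp and Arntl, chosen after their values and those of the clock genes Per2 and Nr1d1 were seen, also differed by replicate number. Dbp had 5.90 and 207 CPM in agonist-treated Arid1a KO livers and 108 and 356 CPM in agonist-treated WT livers, and it was higher in replicate 2 in all 8 groups. Arntl had 29.6 and 2.55 CPM in agonist-treated Arid1a KO livers and 10.8 and 0.840 CPM in agonist-treated WT livers. It was higher in replicate 1 in all 8 groups, but in 9-day Arid1a KO livers the libraries spanned only 3.09 to 3.19 CPM. The labels give no time of day of collection, and its part in these differences was not tested.

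E2f2 and Arid1a both lie on chromosome 4, with 2.42 Mb between the genes, and the positions were looked up after the values of E2f2 were seen. On the other side of Mcm10 from Optn, Phyh had 802 and 679 CPM in Arid1a/b DKO livers and 1536 and 1134 CPM in 9-day WT livers (log2 fold change -0.85, SE 0.24, adjusted p = 0.0273). It had 919.9 and 923 CPM in tumours and fell relative to WT vehicle livers there too (log2 fold change -0.65, SE 0.22, adjusted p = 0.0348). Ucma, which lies between Phyh and Mcm10, had at most 0.340 CPM in any library.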
